A study of Homo sapiens with 21 samples.

Results

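The comparison described here sets HCC1806 cells made to overexpress 3 splicing factor genes at once, SRSF2, SRSF3 and SRSF7 (labelled 3xSR), against their control cells (3xCTL), across all genes. Its libraries were chosen by their titles: 3 of 3xSR and 3 of 3xCTL, 6 of the 21 libraries of the series. HCC1806 is an established human cell line from a triple-negative breast cancer, and it was grown as an adherent culture. Besides this pair, the series holds 3 libraries of cells overexpressing MYC (MYC-OE), counted in the same table, and a second table with 3 libraries each of cells with 1 splicing factor raised (SRSF2-OE, SRSF3-OE or SRSF7-OE) and of their single plasmid control (1xCtrl). What was measured is polyA-selected, stranded RNA-seq, as read counts per gene. The labels give 3xCTL only as a control, and they name no vector, promoter, selection, clone or time for either group, so 3xSR and 3xCTL may each be 1 culture of cells. Nothing in the labels says that the replicates came from separate cultures, and the p-values measure only the spread between these libraries, which may be technical.

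SR proteins are RNA-binding proteins with a domain rich in serine and arginine; they bind exons of pre-mRNA, help to define splice sites and also act in mRNA export and decay. SRSF2, SRSF3 and SRSF7 belong to this family, and several SR genes limit their own mRNA through a poison exon that sends the transcript to nonsense-mediated decay. MYC is a transcription factor that is often amplified or overexpressed in this tumour type, and the study's title sets the 3 splicing factors beside it.

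Total counts lay between 143269192 and 236495865 per library, from 21290 to 22693 genes had at least 10 counts, and 3 counts, taken as the detection floor, came to 0.0127 to 0.0209 CPM (counts per 1000000 of TMM-scaled library size). Replicates differed by more than counting error in every pair, and 3xCTL replicate 2 stood apart from the other controls: the chi-square per degree of freedom was 84.9 and 65.1 in its pairs, 20.3 between the other 2 controls and 12.7 to 35.9 within 3xSR. Markers of basal and squamous breast epithelium were high in every library (summed level 4458 to 5286 CPM in 3xCTL and 5225 to 5527 in 3xSR, KRT5 and KRT6A among them). KRT81 of that list stayed at or under 0.780 CPM and was called lower (-0.90). Luminal and hormone receptor markers summed to 1599 to 2118 CPM in 3xCTL and 1382 to 1473 in 3xSR. Most of that was KRT8, KRT18 and KRT19, while ESR1 stayed between 7.68 and 8.29 CPM. Defining immune markers were near 0 (CD3E at most 0.0254 CPM, PTPRC at most 0.394), and so were those of endothelium (PECAM1 at most 0.149). The summed fibroblast markers lay at 48.5 to 50.7 CPM in 3xCTL and at 23.5 to 26.6 in 3xSR, most of it LUM (35.7 to 39.7 against 15.1 to 16.5), while PDGFRA stayed at or under 0.127 CPM.

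The targeted genes were examined first, since they check the labels. SRSF2 measured 395, 424 and 391 CPM in the 3 libraries of 3xCTL and 373, 397 and 387 in those labelled 3xSR. The groups overlapped, and the log2 fold change was -0.06 (SE 0.0516; adjusted p = 0.389 by the quasi-likelihood test of edgeR, with p-values adjusted over all genes tested by the method of Benjamini and Hochberg); with each library's dependence on GC content removed it was -0.12 (adjusted p = 0.0323). SRSF3 measured 397, 443 and 386 CPM in 3xCTL and 511, 499 and 511 in 3xSR, without overlap. Its rise was 0.31 in log2 (SE 0.0611; adjusted p = 0.00243 by edgeR), and 0.17 with the GC trend removed (adjusted p = 0.00267). SRSF7 measured 289, 306 and 280 CPM in 3xCTL and 383, 401 and 400 in 3xSR, a rise of 0.44 (SE 0.0476, edgeR adjusted p = 3.57e-05). So 2 of the 3 targeted genes were raised at the level of gene counts and SRSF2 was not; every direction below is therefore a direction for the libraries labelled 3xSR.

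MYC, which was not targeted in this line, measured 96.6, 91.0 and 92.6 CPM in 3xCTL and 156, 156 and 159 in 3xSR. All 3 libraries of 3xSR lay above all controls, and the rise of 0.75 (SE 0.0471, edgeR adjusted p = 4.01e-07) exceeded that of each targeted gene. Gene-level counts do not separate transcripts of an introduced construct from those of the chromosomal gene, and SRSF2 shares 1106 exon bases with genes on the opposite strand and 99 on its own. The genes around the targets were also read, because neighbours that move together change what a gene's own value shows. Within 5 Mb of SRSF2 on chromosome 17, 118 protein-coding genes at 1 CPM or more had a median log2 fold change of -0.31, and 53.4% of them were lower in 3xSR. SRSF2 itself lay above that median. With the GC trend removed the gap was small: SRSF2 was at -0.12, and the 10 Mb windows at that end of the chromosome had medians of -0.133 and -0.151. Around SRSF3 on chromosome 6 the median of 119 genes was -0.12, around SRSF7 on chromosome 2 that of 33 genes was 0.15, and around MYC on chromosome 8 that of 28 genes was 0.05.

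**Figure D1:**
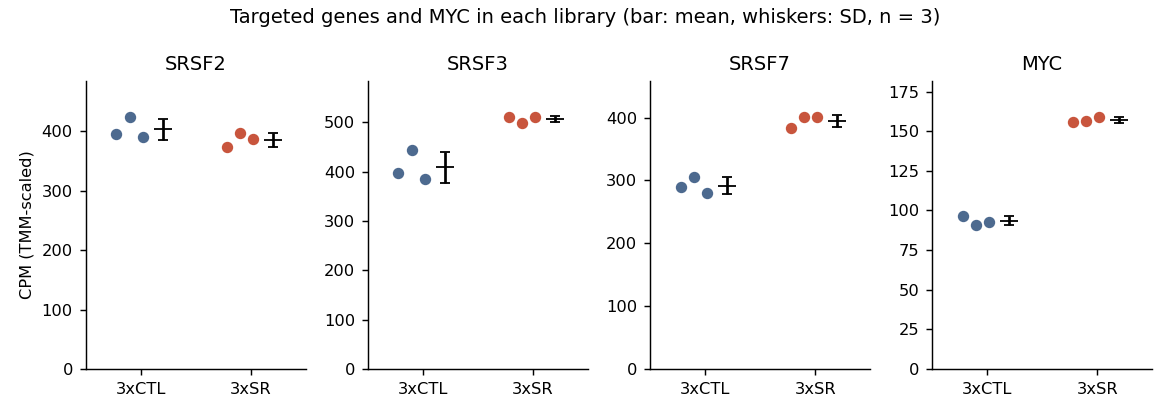
Levels of SRSF2, SRSF3, SRSF7 and MYC in CPM in each of the 3 libraries of 3xCTL (blue) and 3xSR (red); the bar and whiskers give the mean and SD of each group. The groups overlap for SRSF2 and are separate for SRSF3, SRSF7 and MYC, with MYC at 93.4 CPM in 3xCTL and 157 CPM in 3xSR.

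Across the transcriptome, 23160 genes were tested and 6727 of them (29.0%) passed an edgeR adjusted p of 0.05, 3543 higher in 3xSR (15.3% of the genes tested) and 3184 lower (13.7%). Most of these differences were small: the median absolute log2 fold change of the called genes was 0.469, 4055 of them changed by less than 1.5-fold, and 865 were at least 2-fold higher against 476 at least 2-fold lower. The 2 groups did not overlap in 9315 of the genes tested (40.2%), among them 6439 of the called genes. Without 3xCTL replicate 2, the library that stood apart, 9204 genes were called, 4637 higher and 4567 lower. Protein-coding genes were called most often, 19.1% higher and 17.1% lower, against 8.61% and 8.27% of long non-coding genes. The direction moved with GC content: in the fifth of genes with the lowest transcript GC 25.6% were higher and 5.27% lower, and in the fifth with the highest GC 5.96% were higher and 23.6% lower. With the GC trend removed from every library 7687 genes were called, 3983 higher and 3704 lower. The part of GC content in single results was not tested beyond that correction.

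The 12 genes with the highest fold changes among well-measured genes (mean of at least 5 CPM, no overlap between groups) were led by ion channels. TRPC6, a receptor-operated, calcium-permeable cation channel on chromosome 11 (101451564 to 101872562, minus strand, GRCh38), measured 1.05, 1.25 and 1.07 CPM in 3xCTL and 22.1, 23.9 and 23.7 in 3xSR, or 4.37 higher on the log2 scale (standard error 0.0973; adjusted p = 1.8e-10 by edgeR). KCNMA1, the pore-forming subunit of the large-conductance calcium-activated (BK) potassium channel on chromosome 10, measured 1.26, 1.04 and 1.28 CPM against 12.9, 12.4 and 12.6 (3.40, SE 0.103, adjusted p = 1.56e-09). Both went from near 1 CPM to levels that none of the control libraries approached. KIF1A, a kinesin motor that carries synaptic vesicle precursors along axons, measured 1.20, 0.685 and 0.972 CPM against 9.30, 9.38 and 8.91 (3.26, SE 0.177, adjusted p = 1.57e-07). KCNS1, a modulatory subunit of voltage-gated potassium channels, measured 1.30, 1.01 and 1.12 CPM against 9.86, 10.1 and 10.4 (3.14, adjusted p = 2.1e-09). CACNA2D1, an auxiliary subunit of voltage-gated calcium channels, rose from 1.55, 2.08 and 1.77 to 12.4, 9.61 and 10.6 CPM (2.60, adjusted p = 1.23e-07).

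The other 7 of these genes encode enzymes, binding proteins and a receptor. FABP4, a fatty acid-binding protein, went from a mean of 3.88 to 29.8 CPM (2.94), IGF2BP1, an RNA-binding protein that protects mRNAs including that of MYC, from 1.51 to 11.02 CPM (2.87), and NPFFR2, a neuropeptide receptor, from 3.04 to 18.0 CPM (2.56). MME (neprilysin, a surface endopeptidase) rose from 6.07 to 38.1 CPM (2.65), HEPHL1, a ferroxidase of the hephaestin family, from 14.7 to 85.1 CPM (2.53), and PI3 (elafin, an elastase inhibitor) from 8.77 to 44.3 CPM (2.34). MMP1, the interstitial collagenase, was the most abundant of the 12: it measured 325, 385 and 386 CPM in 3xCTL and 1765, 1611 and 1732 in 3xSR (2.22, SE 0.0738, edgeR adjusted p = 3.19e-09). For these 7 the adjusted p lay between 1.8e-10 and 3.67e-08. In each of the 12 the lowest 3xSR library exceeded the highest control, which the naming rule required.

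The 12 genes with the lowest fold changes had log2 fold changes from -2.18 to -1.54. SPNS2, the transporter that exports sphingosine-1-phosphate from cells, measured 11.1, 6.75 and 10.9 CPM in 3xCTL and 1.83, 2.14 and 2.40 in 3xSR (log2 fold change -2.18, SE 0.183, edgeR adjusted p = 8.1e-06). NLGN1, a synaptic adhesion protein, measured 11.3, 10.5 and 11.2 CPM against 2.54, 2.30 and 2.81 (-2.11, SE 0.102, adjusted p = 4.91e-08). TGM2, a transglutaminase that crosslinks proteins, measured 13.98, 11.2 and 11.9 CPM against 2.75, 3.23 and 3.22 (-2.01, SE 0.119, adjusted p = 2.46e-07). HMCN1, the matrix protein hemicentin 1, fell from 33.2 to 9.98 CPM (-1.73), FBLN2, the matrix protein fibulin 2, from 8.42 to 2.90 CPM (-1.54), and PRKCQ, a protein kinase C, from 12.8 to 3.28 CPM (-1.97). Uroplakins, membrane proteins of the urothelium, were represented by UPK3B (-1.86) and UPK2 (-1.72). RBPMS2, an RNA-binding protein (-1.98), GGT6, of the gamma-glutamyltransferase family (-1.78), and PAPSS2, which makes the sulfate donor PAPS (-1.59), completed the group with PCDHA6 (-1.59), a protocadherin that shares 2866 exon bases with its cluster neighbours and is uncertain. The adjusted p of these 12 lay between 2.57e-08 and 0.00658, the latter that of PCDHA6.

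**Figure D2:**
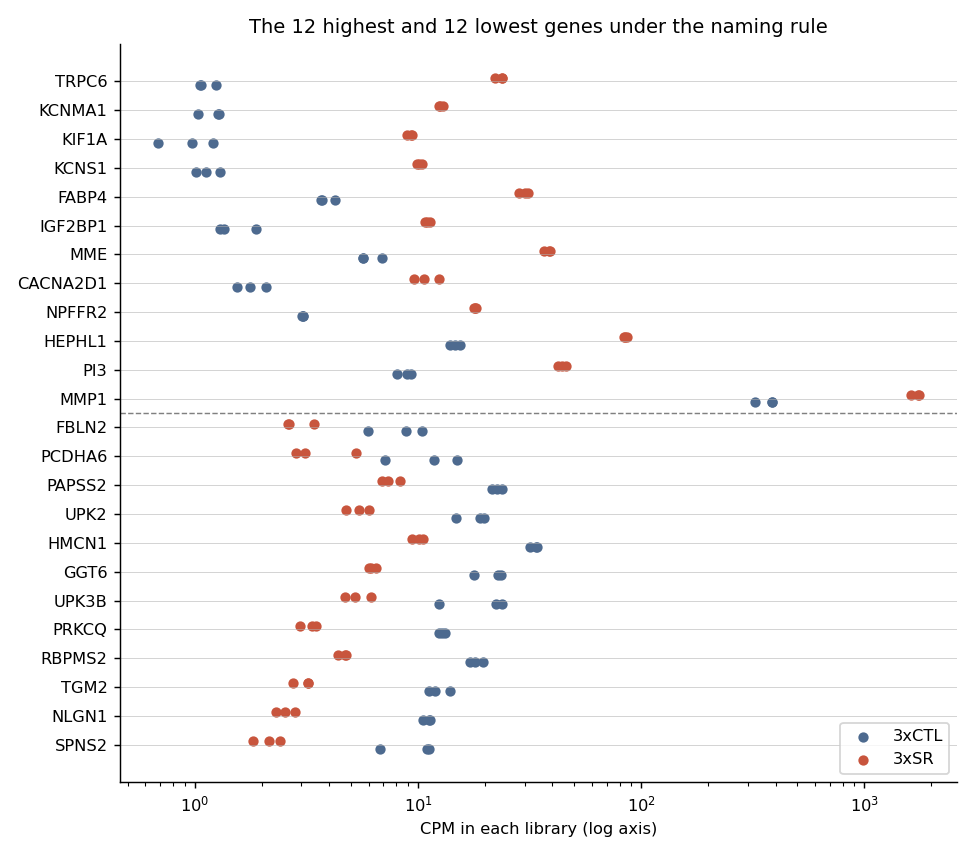
CPM on a log axis in each of the 3 libraries of 3xCTL (blue) and 3xSR (red) for the 12 genes with the highest (above the dashed line) and the 12 with the most negative change under the naming rule. TRPC6 stands at the top (1.12 against 23.3 CPM on average), and PCDHA6 has widely spread controls (7.14 to 15.0 CPM), the lowest of them near the highest 3xSR library (5.25 CPM).

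By the change in CPM, which weights abundant mRNAs, the largest gains were those of CD44 and MMP1. CD44, the hyaluronan receptor, measured 5151, 5762 and 5375 CPM in 3xCTL and 8305, 8229 and 8255 in 3xSR (log2 fold change 0.61, SE 0.0517, edgeR adjusted p = 4.8e-06). ITGA6, an integrin subunit that binds laminin, measured 864, 953 and 937 CPM against 2163, 1978 and 1987 (1.15, SE 0.0555, adjusted p = 4.56e-08). The chaperones HSP90AA1 (1922 to 2574 CPM, 0.42, adjusted p = 0.00227) and HSP90B1 (4661 to 5331 CPM, 0.19, adjusted p = 0.0313) followed, and the call of HSP90B1 was lost with the GC trend removed (adjusted p = 0.0826) and in 5 of the 6 fits without 1 library. The largest losses were those of THBS1 (thrombospondin 1, 1225, 1351 and 1291 CPM against 609, 664 and 599; -1.05, adjusted p = 9.51e-08), PDIA3, SLC7A5, CPA4 and B2M. Of these 5, THBS1, PDIA3 (-0.28) and B2M (-0.43), the light chain of MHC class I, lie on chromosome 15, whose genes were lower as a group (below). CPA4, a carboxypeptidase, fell by 0.91 on the log2 scale and SLC7A5, a subunit of the LAT1 amino acid transporter, by 0.52; SLC7A5 measured 1421 CPM in 3xCTL replicate 2 and 1946 and 2024 in the other controls.

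The channel genes were read as a list of TRPC channels and the BK channel with its auxiliary subunits, 15 genes of which 7 were expressed highly enough to be tested. Of these 7, 6 rose and none fell, with a median log2 fold change of 1.99 beside -0.00383 over all genes tested; the leading genes were known when the list was drawn up, so its direction is not independent evidence. LRRC38, an auxiliary gamma subunit of the BK channel, measured 0.406, 0.513 and 0.367 CPM in 3xCTL and 4.19, 4.21 and 3.61 in 3xSR (3.22, edgeR adjusted p = 2.17e-08). TRPC4 and TRPC1, other members of the TRPC family, went from 0.395 to 1.56 CPM (1.99, adjusted p = 0.000153) and from 1.09 to 2.69 CPM (1.30, adjusted p = 6.97e-05). Both stayed low in 3xSR, and TRPC1 lies in a region of chromosome 3 that was higher as a block (below). KCNMB3, a beta subunit, rose by 0.36 (adjusted p = 0.0119). With the GC trend removed 5 of the 7 rose.

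In the list of AP-1 factors, other immediate early genes and the feedback inhibitors of MAP kinase signalling, 15 of 21 tested genes rose and 2 fell, beside 15.3% and 13.7% of all genes, with a median log2 fold change of 0.788. DUSP6, a phosphatase that inactivates ERK, measured 33.1, 32.4 and 33.2 CPM in 3xCTL and 83.6, 78.8 and 84.3 in 3xSR (1.32, SE 0.0593, edgeR adjusted p = 2.88e-08). SPRY4, a sprouty inhibitor of receptor tyrosine kinase signalling, measured 8.99, 9.44 and 8.38 CPM against 22.6, 23.8 and 25.3 (1.42, SE 0.1, adjusted p = 1.07e-06). DUSP4, DUSP1 and DUSP5 rose by 1.27, 1.21 and 1.03. Among the transcription factors, ATF3 went from 3.31 to 8.69 CPM (1.39, adjusted p = 6.12e-07) and FOSL1, a FOS-family partner in AP-1, from 26.2 to 52.9 CPM (1.01, adjusted p = 2.44e-06), with JUN, FOS and FOSB up by 0.62, 0.85 and 0.88. EGR1 (-0.30, adjusted p = 0.0163) and FOSL2 (-0.19, adjusted p = 0.0444) fell, and the number of lower members ranged from 0, in the fit without 3xSR replicate 1, to 3, without 3xCTL replicate 2. The number of higher members was 15 or 16 in every other fit of the 2 groups at no minimum fold change, and none of the 21 lies in a chromosomal region that moved as a block.

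In the list of the EGF receptor family and its ligands 8 of 14 tested members rose and 2 fell, in every alternative fit at no minimum fold change. That is 71.4% called, beside 29.0% of all genes. HBEGF, a heparin-binding ligand of EGFR, measured 40.4, 43.5 and 44.4 CPM in 3xCTL and 110, 114 and 116 in 3xSR (1.41, SE 0.067, edgeR adjusted p = 4.3e-08). EREG (epiregulin) measured 79.9, 78.6 and 76.1 CPM against 171, 158 and 166 (1.08, SE 0.0527, adjusted p = 5.26e-08), and AREG (amphiregulin) 29.1, 33.3 and 29.4 against 60.3, 58.1 and 58.5 (0.95, SE 0.0626, adjusted p = 6.12e-07). TGFA rose by 0.58 and NRG1 by 0.33, while NRG4, a ligand of ERBB4 encoded in the lower region of chromosome 15, fell from 6.64 to 5.04 CPM (-0.40, adjusted p = 0.00381). EGFR, the receptor of most of these ligands, had a log2 fold change of -0.02 (SE 0.0479, adjusted p = 0.82), with 726 to 787 CPM in 3xCTL and 735 to 776 in 3xSR. ERBB2, its dimerisation partner, measured 181, 140 and 184 CPM in 3xCTL and 109, 129 and 116 in 3xSR (-0.51, adjusted p = 0.00259).

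Cytokines and chemokines rose in 17 of 24 tested members and fell in 2 (79.2% called, beside 29.0% of all genes), with a median of 1.04. Only 15 of the 24 averaged 1 CPM or more. The filter can pass a low gene through 1 group alone, so the count and the median depend in part on it. IL24, a cytokine of the IL-10 family, measured 0.344, 0.205 and 0.228 CPM in 3xCTL and 2.65, 2.85 and 2.59 in 3xSR (3.37, SE 0.246, edgeR adjusted p = 1.39e-06). IL1A, an inflammatory alarmin, measured 14.3, 15.4 and 11.3 CPM against 41.3, 43.4 and 43.8 (1.65, SE 0.0926, adjusted p = 1.61e-07), and CXCL8, a neutrophil chemoattractant, 10.2, 9.66 and 9.52 against 26.7, 28.7 and 28.2 (1.51, SE 0.074, adjusted p = 5.26e-08). CCL20 rose from a mean of 0.462 to 1.77 CPM, and TNF, IL6 and CSF2 rose but stayed under 1 CPM on average. CSF1 fell by 0.74 (adjusted p = 0.00129) and CCL28 by 0.34. The defining markers of immune cells were at or near 0, but CD68, a macrophage marker that other cells also express, went from 5.92 to 10.6 CPM in 3xCTL to 16.3 to 20.3 in 3xSR, and its part in these lists was not tested. Across the alternative fits at no minimum fold change 15 to 18 members rose. IL1A and IL1B lie in a region of chromosome 2 that moved as a block by 0.269.

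Promoter windows from RefSeq (GRCh38.p14, 250 bases before to 50 after each start) were searched for the AP-1 motif TGANTCA, which is its own reverse complement, and for the E-box CACGTG bound by MYC and MAX, likewise palindromic. Windows were matched by symbol for 13668 of the 19296 tested genes with a symbol (70.8%). Of all 35116 windows 7.71% held TGANTCA and 7.26% held CACGTG. Per gene, TGANTCA was found in 7.18% of genes not called, 12.5% of 518 genes at least 2-fold higher and 12.7% of 251 genes at least 2-fold lower, so its share was similar in both directions. CACGTG was found in 11.5% of genes not called, 9.85% of those at least 2-fold higher and 9.16% of those at least 2-fold lower. TGANTCA stood in 3 of 19 matched cytokine genes, in 1 of 17 of the AP-1 and immediate early list and in 3 of 12 of the EGFR list, and CACGTG in 0, 5 and 0 of them. The windows of CXCL8 (chr4:73740319-73740618, plus strand), IL1A (chr2:112784444-112784743, minus strand) and KCNMA1 (the start at chr10:77350712-77351011, minus strand) are printed 5′ to 3′ because these genes rose and their windows hold the AP-1 motif, in capitals.
CXCL8: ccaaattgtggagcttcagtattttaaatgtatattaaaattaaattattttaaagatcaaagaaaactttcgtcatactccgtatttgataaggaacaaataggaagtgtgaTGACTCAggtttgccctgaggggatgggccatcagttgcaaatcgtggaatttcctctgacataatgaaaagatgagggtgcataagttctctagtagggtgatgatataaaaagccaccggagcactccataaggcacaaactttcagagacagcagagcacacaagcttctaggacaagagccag
IL1A: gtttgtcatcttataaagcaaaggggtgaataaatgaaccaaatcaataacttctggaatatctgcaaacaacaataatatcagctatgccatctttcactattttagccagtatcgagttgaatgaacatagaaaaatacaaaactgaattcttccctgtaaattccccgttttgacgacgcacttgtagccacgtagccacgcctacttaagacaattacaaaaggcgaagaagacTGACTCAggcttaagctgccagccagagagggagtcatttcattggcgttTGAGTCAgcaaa
KCNMA1: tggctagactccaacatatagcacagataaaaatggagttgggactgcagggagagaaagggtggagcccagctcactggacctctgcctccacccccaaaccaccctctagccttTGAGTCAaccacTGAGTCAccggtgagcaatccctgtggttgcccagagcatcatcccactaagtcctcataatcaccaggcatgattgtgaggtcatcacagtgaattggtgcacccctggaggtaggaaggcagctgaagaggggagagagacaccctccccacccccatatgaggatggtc
Counted from the start, with the first transcribed base as 1, the motif begins at -137 in CXCL8, at -12 and 39 in IL1A and at -134 and -122 in KCNMA1. A second listed window of IL1A, from another start, places its motifs at -105 and -55. The other listed KCNMA1 window and the window of TRPC6 hold neither motif. Among the 12 lowest genes NLGN1, which fell, also has an AP-1 motif in its window. A match of letters is a description and shows no binding.

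Adhesion, matrix and protease genes changed in both directions. Of 17 tested integrin genes 7 rose and 1 fell (47.1% called, beside 29.0% of all genes). ITGA4 went from 0.788 to 5.42 CPM (2.78, edgeR adjusted p = 5.26e-08), ITGA1, a collagen-binding subunit, from 4.002 to 10.4 CPM (1.38, adjusted p = 3.44e-07), and ITGA2, its relative, from 174 to 311 CPM (0.83, adjusted p = 9.88e-07). ITGB2, the beta chain of leukocyte integrins, fell from 2.37 to 0.676 CPM (-1.80, adjusted p = 4.82e-05). ITGA4, ITGA6 and ITGAV lie in a region of chromosome 2 in which 70.5% of genes were higher; within 5 Mb of ITGA6 the median of 41 genes was 0.617 beside 1.15 for ITGA6. Among matrix proteases, their regulators and transglutaminases 11 of 27 rose and 6 fell (63% called). Besides MMP1, the stromelysin MMP3 rose from 0.408 to 1.87 CPM (2.20, adjusted p = 5.02e-06), SERPINB2, an inhibitor of plasminogen activators, from 30.4 to 75.9 CPM (1.32) and PLAU (urokinase) from 172 to 312 CPM (0.86). MMP13 (-0.71) and the membrane-bound MMP15 (-0.86) fell.

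Collagens, laminins and matrix glycoproteins gave 6 higher and 8 lower of 34, or 17 lower without 3xCTL replicate 2. These were 17.6% higher, near the 15.3% of all genes, and 23.5% lower, beside 13.7%. Fibrillin 2 (FBN2) measured 3.18, 3.03 and 3.17 CPM in 3xCTL and 12.2, 12.4 and 12.4 in 3xSR (1.98, SE 0.0541, edgeR adjusted p = 7.77e-10). The fibrillar and associated collagens COL5A1 (-0.74), COL5A2 (-0.82) and COL12A1 (-1.06) fell, with HSPG2 (perlecan, -0.91). In the list of mesenchymal genes 9 of 20 rose and 3 fell (45% and 15%). CDH11, an adhesion protein of mesenchymal cells, rose from 8.49 to 32.3 CPM (1.93, adjusted p = 4.56e-09) and LOX, which crosslinks collagen, from 7.32 to 20.8 CPM (1.51), while CDH2 (N-cadherin) fell from 20.3 to 10.4 CPM (-0.97). VIM, the intermediate filament that defines the mesenchymal state, was called higher but stayed under 1 CPM (0.209 against 0.872). Epithelial junction genes gave 5 higher and 7 lower of 25 (20% and 28%), or 8 and 13 without 3xCTL replicate 2. CLDN8 went down from 36.5 to 14.3 CPM (-1.36), OCLN up by 0.76 and CDH1 (E-cadherin) down by 0.22.

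Of 21 tested keratins 9 fell and 6 rose (71.4% called, beside 29.0% of all genes). KRT14, of basal keratinocytes, measured 404, 281 and 359 CPM in 3xCTL and 702, 687 and 675 in 3xSR (0.98, edgeR adjusted p = 7.28e-05), and of the keratins of stressed epidermis KRT6A rose from 733 to 1099 CPM (0.58) and KRT16 by 0.88. KRT1, a keratin of differentiating layers above the basal one, rose from 1.97 to 5.90 CPM (1.59, adjusted p = 3.13e-06). Of the keratins of simple epithelium KRT8 fell from 452 to 338 CPM (-0.42), KRT18 by 0.25 and KRT7 by 0.37, and KRT4, KRT13 and KRT80 fell as well (-0.57, -0.58 and -1.01). KRT5, the partner of KRT14, and KRT17 had log2 fold changes of -0.17 and 0.24 (adjusted p = 0.118 and 0.224), and KRT19, of simple epithelium, one of -0.44 that also missed the threshold (adjusted p = 0.0573). Of the 9 luminal and hormone receptor markers 5 fell and none rose, beside 13.7% lower and 15.3% higher of all genes. KRT8 and KRT18, already counted among the keratins, were among the 5, with GATA3 (-0.43) and ERBB2. PGR, also among them, measured only 0.103 to 0.315 CPM in 3xCTL and had no count in any library of 3xSR.

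Of the 11 other SR proteins and TRA2 factors 4 rose and 1 fell (45.5% called): SRSF6 went from 210 to 269 CPM (0.36, edgeR adjusted p = 0.000674), TRA2B from 245 to 293 CPM (0.26) and SRSF11 from 267 to 314 CPM (0.23), and SRSF8 fell by 0.22. The fourth, SRSF12, had no count in 3xCTL and a mean of 0.0246 CPM in 3xSR, near the detection floor. SRSF6 lies in the higher region of chromosome 20, and the call of SRSF11 was lost with the GC trend removed (adjusted p = 0.167). Of the kinases that phosphorylate SR proteins CLK1 (0.22) and CLK4 (0.31) rose, both calls lost with the GC trend removed (adjusted p = 0.348 and 0.0545), and CLK3, on chromosome 15, fell by 0.45. The core spliceosome gave 3 higher and 5 lower of 35 (22.9% called, beside 29.0% of all genes), hnRNPs and PTB proteins 2 and 3 of 25, and nonsense-mediated decay factors 1 and 2 of 16. With the GC trend removed these became 7 and 7, 0 and 8, and 3 and 5, and without 3xCTL replicate 2 the core spliceosome had 10 lower members. Splicing regulators of restricted tissue expression gave 6 higher and 4 lower of 20, with MBNL1 (muscleblind, in the higher region of chromosome 3) from 146 to 199 CPM (0.45) and RBM20, a splicing factor of striated muscle, from 1.48 to 0.366 CPM (-2.01).

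Genes of ribosome production were seldom called in the main fit, and those of DNA replication fell more often than they rose. In the list of nucleolar ribosome biogenesis genes 2 of 30 rose and 2 fell, with a median of 0.021, and in cytosolic ribosomal proteins 2 of 39 rose and 2 fell; 13.3% and 10.3% of these lists were called, below the 29.0% of all genes. Both counts rose without 3xCTL replicate 2, to 6 higher and 6 lower and to 8 higher and 10 lower. In that fit 9204 genes were called in all, and the shares of the 2 lists were no longer below that of all genes. DNA replication and origin licensing genes fell in 11 of 30 and rose in 1, with a median of -0.137. MCM3, a subunit of the replicative helicase, measured 360, 355 and 333 CPM in 3xCTL and 275, 254 and 266 in 3xSR (-0.40, edgeR adjusted p = 0.000105), MCM5 fell from 83.4 to 57.7 CPM (-0.53) and TYMS (thymidylate synthase) from 80.8 to 62.8 CPM (-0.36). With the GC trend removed 16 of the 30 fell. Mitosis and spindle checkpoint genes gave 5 higher and 5 lower of 30 (33.3% called, near the 29.0% of all genes), or 6 and 13 with the GC trend removed and 9 higher without 3xCTL replicate 2; 4 of the 5 lower ones, KIF23, CCNB2, PRC1 and BUB1B, lie on chromosome 15, and AURKA and BUB1, among the higher, in the higher regions of chromosomes 20 and 2.

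In the list of CDK inhibitors, cyclins and p53 targets 5 of 23 rose and 7 fell (52.2% called, beside 29.0% of all genes). CDKN1A (p21, an inhibitor of cyclin-dependent kinases) measured 18.4, 14.6 and 16.7 CPM in 3xCTL and 35.8, 33.8 and 35.1 in 3xSR (1.08, edgeR adjusted p = 1.02e-06), whereas E2F1 fell by 0.42 and CDK4 by 0.23. In the network of MYC partners, MXD1, an antagonist that competes with MYC for MAX, rose from 26.3 to 43.2 CPM (0.71, adjusted p = 8.15e-07) and MXI1 by 0.40, while MXD3 fell by 0.62. Stress-response genes gave 9 higher and 5 lower of 27 (51.9% called), with PPP1R15A, which promotes eIF2alpha dephosphorylation, up by 0.56. Glycolysis and hypoxia genes gave 8 higher and 4 lower of 29 (41.4% called), or 10 lower without 3xCTL replicate 2 and 1 lower without 3xSR replicate 3. The hypoxia targets BNIP3 (0.90) and VEGFA (204 to 300 CPM, 0.56) rose and GAPDH fell by 0.18. Cholesterol and fatty acid synthesis gave 3 higher and 6 lower of 27 (33.3% called, near the 29.0% of all genes), or 13 lower without 3xCTL replicate 2, with HMGCS1, an early enzyme of the pathway, down from 384 to 287 CPM (-0.42). Interferon-stimulated genes were split, 12 higher and 7 lower of 35 (54.3% called), with OAS1, which senses double-stranded RNA, among the higher (0.54) and BST2 (tetherin, which holds virus particles at the cell surface) among the lower (-0.83). The number of lower members was 4 without 3xSR replicate 3 and 10 with the GC trend removed.

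**Figure D3:**
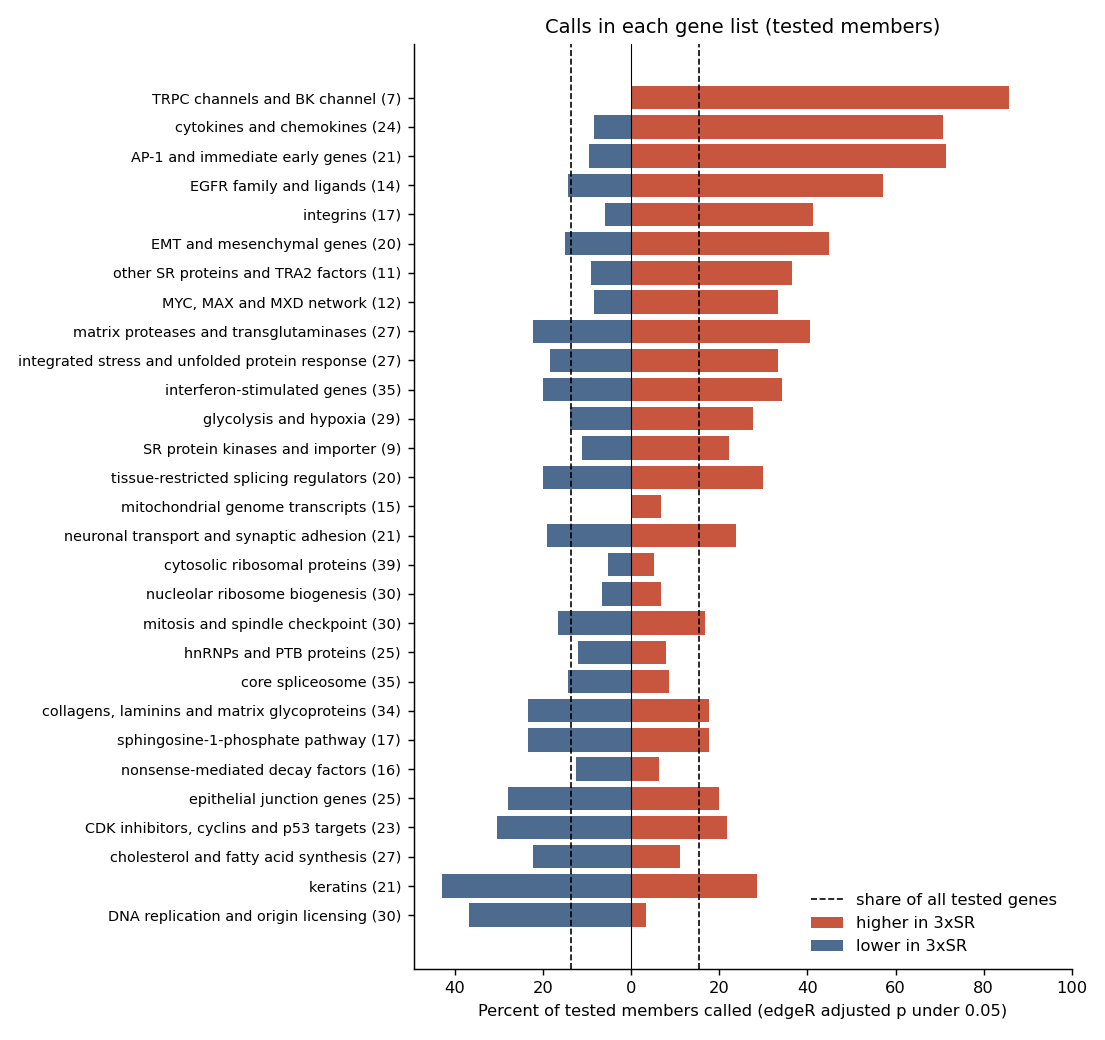
For each gene list (number of tested members in parentheses), the percent of members called higher in 3xSR (red, to the right) and lower (blue, to the left) at an edgeR adjusted p under 0.05; the dashed lines mark 15.3% and 13.7%, the shares of all 23160 tested genes. The lists of channels, cytokines, AP-1 genes and EGFR ligands reach furthest to the right, and keratins and DNA replication genes furthest to the left.

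Genes were also read by their position on the chromosomes. Protein-coding genes at 1 CPM or more were read in windows of 10 Mb, and a region was a run of at least 3 windows, each with at least 10 genes and a median log2 fold change of at least 0.15 in 1 direction, with and without the GC trend; this rule was chosen after the data were seen, so the medians below are a description. It gave 5 regions. On chromosome 15 the run covered the whole gene-bearing arm, from NIPA1 to TARS3: of 396 genes 70.2% were lower in 3xSR and 5.05% higher, with a median of -0.323 (quartiles -0.494 and -0.178). The long arm of chromosome 3 from PROS1 to SEC62 was higher, with 71.2% of 243 genes up and a median of 0.38. On chromosome 2, 88 genes from ITGB6 to PMS1 had a median of 0.42 (70.5% higher) and 140 genes from MRPS5 to HS6ST1 one of 0.269 (63.6% higher). On chromosome 20, 175 genes from HM13 to CDH26 had a median of 0.285 (62.9% higher).

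The shift was present in each library. For chromosome 15 the median deviation from the mean of the 6 libraries was 0.146, 0.193 and 0.138 on the log2 scale in 3xCTL and -0.131, -0.176 and -0.173 in 3xSR, and for the region of chromosome 3 it was -0.213, -0.103 and -0.238 against 0.228, 0.147 and 0.18. The groups did not overlap in any of the 5 regions, which were chosen for their difference between these groups. With the GC trend removed the 5 medians, in the order given above, were -0.353, 0.284, 0.334, 0.225 and 0.305. Some of these regions also moved in other lines: the chromosome 15 median was -0.196 in MYC-OE against the same 3xCTL libraries and -0.172 in SRSF3-OE against 1xCtrl, but -0.033 in SRSF2-OE and 0.063 in SRSF7-OE. That of chromosome 20 was positive in all of them, from 0.186 in SRSF7-OE to 0.405 in MYC-OE. So were those of chromosome 3 (0.068 in SRSF7-OE to 0.404 in SRSF3-OE) and of chromosome 2 from ITGB6 to PMS1 (0.17 in SRSF2-OE to 0.454 in MYC-OE). The region of chromosome 2 from MRPS5 to HS6ST1 was positive in SRSF3-OE (0.179) and negative in MYC-OE (-0.028), SRSF2-OE (-0.115) and SRSF7-OE (-0.087). DNA copy number was not analysed here, and whether the cells of the 2 groups differ in it was not tested.

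Within these regions 989 of 1968 tested genes were called (50.3%), against 5738 of 21192 elsewhere (27.1%). The regions were chosen by the fold changes of this same comparison, so a higher share within them follows from the rule and is no separate result. They held 14.7% of all calls and 12.1% of the calls of at least 2-fold. Of the 12 highest genes MME, KCNS1 and PI3 lie in them and of the 12 lowest RBPMS2 and TGM2; TGM2 fell by 2.01 within a region that rose. TRPC6 and KCNMA1 do not: within 5 Mb of TRPC6 the median of 21 genes was 0.236, and around KCNMA1 that of 47 genes was -0.053. The end of chromosome 17 that holds SRSF2 met the rule in no run, with window medians of -0.243 and -0.374, or -0.133 and -0.151 with the GC trend removed.

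**Figure D4:**
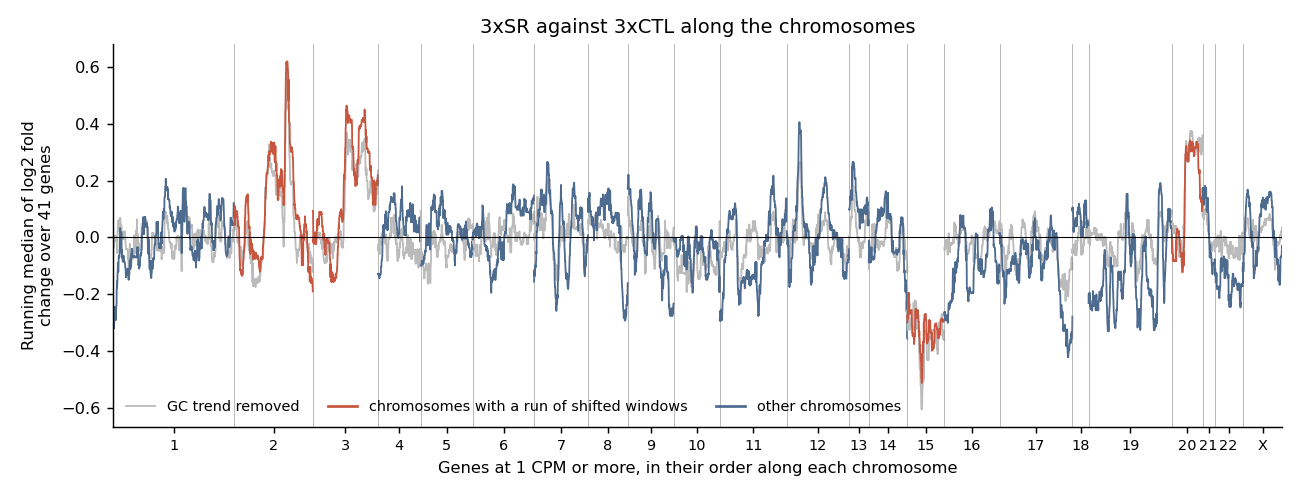
Running median of the log2 fold change of 3xSR against 3xCTL over 41 neighbouring protein-coding genes at 1 CPM or more, in gene order along each chromosome; red marks the 4 chromosomes with a run of shifted windows, blue the others, and grey the values with the GC trend removed. Chromosome 15 lies below 0 along its length (median -0.323), and parts of chromosomes 2, 3 and 20 lie above 0 in red and grey alike.

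The effect of 3xSR was then set beside those of the single lines, each fitted against its own control in the second table. The difference of effects, from a joint edgeR model of both tables, passed an adjusted p of 0.05 for 5472 of 25013 genes (21.9%) against SRSF2-OE, 4453 (17.8%) against SRSF3-OE and 6142 (24.6%) against SRSF7-OE. The 2 control lines are different cells, so a difference of effects includes how the controls differ. TRPC6 had a log2 fold change of 0.22 in SRSF2-OE, one of 2.86 in SRSF3-OE and one of -0.44 in SRSF7-OE, beside 4.37 in 3xSR, and each difference passed the test (edgeR adjusted p at most 3.36e-07). KCNMA1 rose in all 3 single lines, by 0.67, 1.26 and 0.75, and by more in 3xSR (3.40; adjusted p of the differences at most 2.33e-10). For all 12 of the highest genes the effect differed from each single line, but these genes were taken for the size of their 3xSR effect. MMP1 rose in SRSF2-OE (0.82) and SRSF3-OE (1.17) and fell in SRSF7-OE (-0.84), and FBN2 rose in 3xSR, SRSF2-OE and SRSF7-OE and fell in SRSF3-OE (-1.29). Among the lowest genes, PRKCQ fell further in SRSF2-OE (-4.03) and SRSF7-OE (-3.68) than in 3xSR (-1.97), and UPK2 fell in SRSF3-OE (-2.09) and rose in SRSF7-OE (1.27).

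Gene lists also differed between the lines. The AP-1 list had a median of 0.321 in SRSF2-OE, one of 0.347 in SRSF3-OE and one of 0.042 in SRSF7-OE, beside 0.788 in 3xSR, and the 3xSR effect was above that of SRSF7-OE in 16 of the 21 genes by the test of the difference (13.6% of all genes). DUSP6 rose by 0.43 in SRSF2-OE and had changes of 0.04 and 0.05 in SRSF3-OE and SRSF7-OE (adjusted p = 0.691 and 0.69). The cytokine list had medians of -0.282, 0.624 and 0.252, and IL24 rose by 4.17 in SRSF3-OE and fell by 1.81 in SRSF7-OE. In the same order of lines 1, 16 and 8 of the 24 cytokine genes were called higher, beside 17 in 3xSR. The EGFR list had 3, 7 and 1 of 14 called higher, beside 8 in 3xSR. Of all genes tested SRSF2-OE had 11.6% called higher, SRSF3-OE 15.0% and SRSF7-OE 9.03%, and the 3xSR effect was below that of SRSF2-OE in 8.53%, that of SRSF3-OE in 7.02% and that of SRSF7-OE in 10.9%. Core spliceosome genes, of which 3 rose and 5 fell in 3xSR, rose in 20 of 35 in SRSF2-OE and in 20 in SRSF3-OE, and the 3xSR effect was below those effects in 14 and 12 genes. Nucleolar ribosome biogenesis genes rose in 26 of 30 in SRSF3-OE (median 0.468), and the 3xSR effect was below in 20. Cytosolic ribosomal proteins rose in 20, 20 and 29 of 39 in the 3 single lines and the 3xSR effect was below in 8, 6 and 22.

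**Figure D5:**
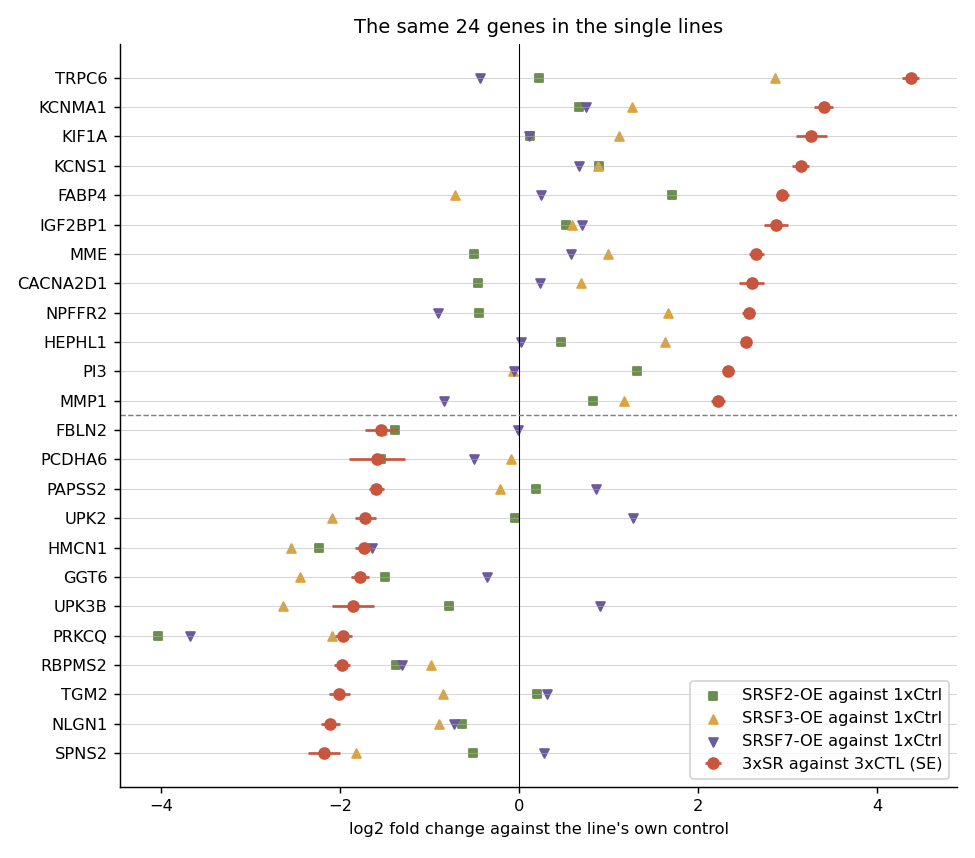
Log2 fold change against its own control of the same 24 genes in 3xSR (red, whiskers: SE) and in the lines with 1 splicing factor, with the highest genes above the dashed line. For the 12 highest genes 3xSR lies to the right of the single lines, and for PRKCQ, HMCN1, UPK3B, GGT6 and UPK2 at least 1 single line lies further to the left.

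MYC-OE and 3xSR share their control libraries, so their effects are given side by side and compared directly only between the 2 lines. Between MYC-OE and 3xSR 8076 of 23160 genes (34.9%) differed at an edgeR adjusted p under 0.05, 17.3% higher in MYC-OE and 17.6% lower. MYC itself was higher in MYC-OE than in 3xSR by 0.15 (SE 0.0468, adjusted p = 0.029), against rises over 3xCTL of 0.90 and 0.75. TRPC6 rose by 2.89 in MYC-OE and by 4.37 in 3xSR and was lower in MYC-OE by 1.49 (adjusted p = 4.85e-07). KCNMA1 rose by 3.49 and 3.40, a difference of 0.09 (SE 0.0912, adjusted p = 0.488), and FABP4 by 3.02 and 2.94, a difference of 0.08 (SE 0.0697, adjusted p = 0.415). Of the 12 highest genes 7 were lower and 2 higher in MYC-OE than in 3xSR, and of the 12 lowest 7 were higher and 4 lower. These genes were taken for the size of their 3xSR effect, which by itself favours such a balance, so the counts do not compare the 2 lines. DUSP6 and SPRY4 had effects of 0.02 and -0.59 in MYC-OE beside 1.32 and 1.42 in 3xSR, and EREG -0.25 beside 1.08.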

How the data were processed

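The authors deposited whole-number read counts per gene in 2 tables, 1 with 3xCTL, 3xSR and MYC-OE and 1 with the single lines; the submitters' processing notes name Trimmomatic 0.39, STAR, StringTie 2.1.3b and GRCh38.p13, and the strand setting of the counting is not given in the sources used here. Per the labels' protocols, libraries were made from 500 ng of total RNA with a stranded polyA kit and read as 150-base pairs. Counts were tested with edgeR 4.0.16 (R 4.3.3; filterByExpr with a minimum count of 10 and total of 15, TMM scaling, robust quasi-likelihood test, Benjamini-Hochberg adjustment, threshold 0.05), fitted on all 9 libraries of the first table; differences from the single lines came from 1 fit on all 21 libraries. Coordinates, exon overlaps and GC content came from GENCODE release 29. CPM are counts per 1000000 of TMM-scaled library size.

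The named genes were the 12 most raised and the 12 most lowered by fold change among called genes at a mean of at least 5 CPM without overlap between groups, the 5 with the largest gain and the 5 with the largest loss in CPM, the 3 called members of each list with the largest absolute fold change at a mean of 1 CPM or more, and members that define a list by name; other list members were chosen after their values were seen. The comparison, gene lists and tests were chosen with earlier results of these data known. The alternatives for 3xSR against 3xCTL were other scalings, filters, tools (DESeq2 1.42.0, limma 3.58.1) and sample sets, a replicate block, removal of each library's GC trend (50 bins), a minimum fold change, thinning, and leaving out each library. For the other contrasts only part of these was run. On simulated data with 200 genes changed 2-fold among 23160, the 3xSR test recovered 56% of them, 97.8% of the 89 at 5 CPM or more, with 7 false calls among 119. The simulated counts had no GC trend, no library that stood apart and far fewer changed genes than were called here. These rates therefore need not hold for the data. With 3 libraries against 3, an exact permutation test cannot go below 0.1, so none was used. In bulk samples, fewer cells of a type and less RNA per cell cannot be told apart.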

Additional observations from a re-analysis of the deposited data

Results flagged for a closer look

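Effects that differed between 3xSR and the single lines were flagged by the test of the difference in the joint edgeR model. Against SRSF2-OE this held for 5472 genes, 81 of the 113 named genes among them, and 18 named genes had called effects of opposite sign. Against SRSF3-OE the numbers were 4453, 49 and 7, and against SRSF7-OE 6142, 92 and 26. Because the named genes were mostly taken for their 3xSR effect, these shares do not describe genes in general.

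Among the 24 genes with the highest and lowest fold changes, 9 differences joined called effects of opposite sign. The 3xSR effect exceeded that of SRSF2-OE by 3.07 on the log2 scale for CACNA2D1 (SE 0.18), by 3.16 for MME (SE 0.129) and by 3.03 for NPFFR2 (SE 0.106). It exceeded that of SRSF3-OE by 3.68 for FABP4 (SE 0.164). Against SRSF7-OE the difference was 4.82 for TRPC6 (SE 0.147), 3.48 for NPFFR2 (SE 0.106) and 3.07 for MMP1 (SE 0.123), and it was -2.45 for PAPSS2 (SE 0.122) and -2.99 for UPK2 (SE 0.269). The edgeR adjusted p of these differences was at most 3.98e-07.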

How the results depend on the processing

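The number of genes called stayed within 1.5 times of 6727 under each other scaling, filter, tool and sample set that was tried, from 4909 without 3xSR replicate 3 to 9204 without 3xCTL replicate 2 (2661 to 4637 higher and 2204 to 4567 lower over the fits that left out 1 library). Requiring a change of more than 1 in log2, tested as such, left 362 genes, 284 higher and 78 lower, by the construction of that test; MYC (0.7492), SRSF3 (0.3109) and SRSF7 (0.4357) then no longer passed. SRSF2 passed as lower with the GC trend removed (-0.1206) and with the replicate block and the GC trend removed (-0.1213); the cause was not tested. Same-numbered libraries of the 2 groups did not deviate together (correlations 0.00119, -0.0421 and 0.00333), so the numbers were not taken as pairs, and the fit with a replicate block called 6145 genes. Scaling by total counts alone gave 3368 higher and 3477 lower. The differences of effects ranged from 4614 to 5648 genes against SRSF2-OE, 3582 to 4659 against SRSF3-OE and 4991 to 6481 against SRSF7-OE, and MYC-OE against 3xSR from 6068 to 8212. These ranges cover other scalings, filters, a replicate block and fits without 1 library of 3xSR or, for the differences of effects, of 3xCTL. Removal of the GC trend, other tools and leaving out a library of another group were not run for these contrasts. None of the 113 named genes reversed under the alternatives run, but 146 of their 2147 alternative values no longer passed the threshold. Of these 146, 72 came from the test of a minimum fold change, which small changes fail by construction. Direction and call were kept in every alternative, that test included, by 40 of the 113 genes. With counts thinned to the smallest library 6634 genes were called.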
